A study of Homo sapiens and Mus musculus with 74 samples.

Results

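Long intergenic noncoding transcripts (lincRNAs) were examined in the kidney and brain of Rpl41 knockout mice. The members were the 8795 transcripts of 5815 genes that GENCODE M21 types as lincRNA, out of 142604 transcripts of 55174 genes in the mouse count table. Transcripts of Gm10076, 2310047D07Rik, Gas5, Meg3, Malat1 and the Snhg genes had been set aside, which left out 65 of 8860 lincRNA transcripts. Mice were 10-week-old males, either WT (Rpl41+/+) littermates or KO (Rpl41-/-) animals in which CRISPR-Cas9, delivered to C57BL/6J zygotes, had removed the whole Rpl41 coding sequence from every tissue. Each of the 2 genotypes had 3 libraries of kidney Ribo-seq, kidney disome-seq, kidney RNA-seq, brain Ribo-seq and brain RNA-seq, 30 in all of the 74 samples in the series. Ribo-seq counts RNA fragments of 17 to 34 nt that a ribosome shields from RNase I, disome-seq counts fragments of 50 to 80 nt shielded by 2 stacked ribosomes, and the RNA-seq libraries were poly(A)-selected. The question was how many footprints this class carries for its RNA, and whether that differs between KO and WT and between kidney and brain.

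lincRNAs are transcribed by RNA polymerase II from stretches between protein-coding genes, and most are capped, spliced and polyadenylated like mRNAs but lack a long open reading frame. Some stay in the nucleus, where they scaffold nuclear bodies or act on chromatin, while others reach the cytoplasm, where ribosomes can load on short frames near the cap. A few loci first annotated as lincRNA have since been found to encode small proteins, and the brain is known as a tissue that transcribes many lincRNAs. RPL41 is a very small, basic ribosomal protein that lies at a bridge between the subunits.

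The sequences below show the kinds of member that the counts turn on, taken from the reference genome GRCm38 and written 5′ to 3′ on the strand of the transcript. Bc1, a short dendritic RNA of neurons made by RNA polymerase III that represses translation, is given whole (chr7:144914470-144914637, plus strand, 1 exon) because it was the most abundant member in brain RNA. Capitals mark the A-rich stretch, that is, every base within a window of 20 nt that holds at least 16 A.

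Bc1: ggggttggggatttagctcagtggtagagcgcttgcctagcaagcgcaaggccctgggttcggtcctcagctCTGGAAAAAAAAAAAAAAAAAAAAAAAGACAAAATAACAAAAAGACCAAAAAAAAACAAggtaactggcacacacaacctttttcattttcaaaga

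1810058I24Rik, known to encode the small mitochondrial protein Stmp1, is represented by a reading frame of 47 codons and a stop, spliced from exons within chr6:35252768-35261233 on the plus strand. Capitals mark the first and last codon. It is shown because its footprints fell in KO kidney while its RNA counts were higher.

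1810058I24Rik: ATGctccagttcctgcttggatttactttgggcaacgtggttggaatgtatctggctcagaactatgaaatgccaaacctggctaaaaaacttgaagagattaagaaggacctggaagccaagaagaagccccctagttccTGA

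Gm10874, Gm47162, Gm28901 and Gm16302 are shown by 150 bases each because they held many footprints with almost no RNA in kidney. Capitals mark bases inside 25-nt windows that also occur, in reverse orientation, in the coding sequences of Got2, Scp2, Hnrnpf and Mif, in that order. Windows that reach outside the coding sequence are not marked, and some lower-case bases of Gm16302 lie in such windows shared with the Mif transcript. The stretches are Gm10874 at chr5:138364381-138364530 (plus strand), Gm47162 at chr9:123307749-123307898 (plus strand), Gm28901 at chr1:97025398-97025547 (minus strand) and Gm16302 at chr9:14845613-14845762 (plus strand).

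Gm10874: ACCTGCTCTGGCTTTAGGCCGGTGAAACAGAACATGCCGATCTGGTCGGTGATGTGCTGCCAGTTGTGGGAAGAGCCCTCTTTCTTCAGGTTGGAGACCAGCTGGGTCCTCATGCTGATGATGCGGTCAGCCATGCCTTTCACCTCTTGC

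Gm47162: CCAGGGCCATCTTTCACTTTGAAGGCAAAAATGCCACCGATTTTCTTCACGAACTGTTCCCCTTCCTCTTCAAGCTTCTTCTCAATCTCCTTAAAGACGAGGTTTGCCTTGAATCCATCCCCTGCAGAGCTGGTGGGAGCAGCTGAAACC

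Gm28901: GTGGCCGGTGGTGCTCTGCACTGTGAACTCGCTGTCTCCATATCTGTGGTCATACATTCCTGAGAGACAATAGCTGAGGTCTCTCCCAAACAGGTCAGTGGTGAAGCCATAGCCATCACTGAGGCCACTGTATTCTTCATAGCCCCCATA

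Gm16302: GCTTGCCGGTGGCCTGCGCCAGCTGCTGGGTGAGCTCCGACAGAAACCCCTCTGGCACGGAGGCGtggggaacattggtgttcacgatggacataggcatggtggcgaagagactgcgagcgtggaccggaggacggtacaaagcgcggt

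Such shared sequence was common. Of the 8795 members, 4109 (46.7%) held at least 1 window of 25 nt found in a protein-coding transcript and 874 (9.94%) held 1 found in a structural RNA such as rRNA or snRNA. Either kind was found in 4179 members (47.5%), which left 4616 that shared no window. The extent was mostly small, with a median of 2.64% of windows over the 4109 members that shared with coding transcripts. Since the authors allowed reads that map to several places, a footprint in a shared window can be counted on both transcripts. By position, 251 members overlapped a coding exon, 72 of them on the same strand and 183 on the opposite strand, and the strand setting of the counting was not given in the sources used here. Members had a median length of 787 nt (quartiles 514 and 1498 nt) and a median of 3 exons. No count fell on 1409 members in any library, 7386 had a count somewhere and 2635 reached 10 counts in at least 1 library.

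Total counts per library ranged from 44998381 to 55077048 in the RNA-seq of kidney and 84433838 to 123745890 in that of brain, 11036643 to 42452425 and 9498663 to 35881929 in Ribo-seq of the same tissues, and 1187636 to 3018963 in disome-seq. Rpl41 itself had 3697 to 7554 counts in WT and 3 to 9 in KO kidney RNA-seq, and 9017 to 12265 against 6 to 12 in brain. Kidney markers summed to 3840 to 4320 CPM (counts scaled to a common library total) in kidney RNA and at most 0.696 CPM in brain, and brain markers to 2570 to 2950 CPM in brain and 4.51 to 6.15 CPM in kidney. Blood markers were lower in KO brain RNA (405 to 735 CPM over 5 genes) than in WT brain (772 to 2390 CPM). Fat markers were lower in KO kidney (4.18 to 6.1 CPM over 3 genes) than in WT kidney (6.96 to 14.6 CPM). In brain RNA, KO libraries were higher in choroid plexus markers (374 to 395 CPM over 3 genes, against 318 to 344 CPM in WT) and in brain markers (2810 to 2950 CPM over 6 genes, against 2570 to 2750 CPM), again without overlap. The part of these markers in the comparisons below was not tested. The study describes its replicates as biological. Here p-values measure the spread between these libraries, except in the tissue test of footprints over RNA, as stated there.

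lincRNAs took a small part of every library, and a larger part of RNA than of footprints. In WT kidney they held 0.321%, 0.323% and 0.254% of RNA-seq counts in libraries 1 to 3 and 0.167%, 0.162% and 0.171% of Ribo-seq counts. In WT brain they held 0.630%, 0.665% and 0.646% of RNA-seq counts and 0.300%, 0.223% and 0.204% of Ribo-seq counts. The share of Ribo-seq counts over the share of RNA-seq counts, called footprints over RNA, was therefore 0.559 ± 0.0778 (n = 3) in WT kidney and 0.375 ± 0.0752 in WT brain, where the SD of such a ratio takes in the spread of both kinds of library. For protein-coding transcripts the same ratio was 0.900 and 0.980.

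**Figure D1:**
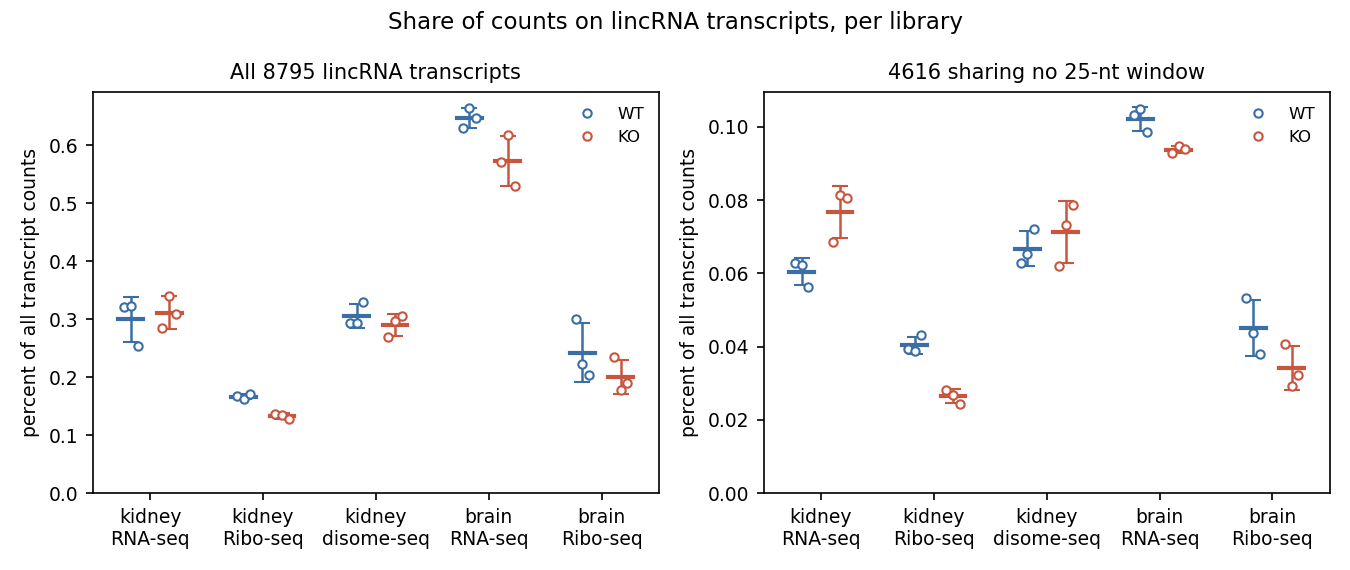
Share of all transcript counts that fell on lincRNA transcripts, in percent, for each library of each tissue and assay, with all members on one panel and the members that share no 25-nt window on the other. Circles are libraries and bars are means of 3. KO kidney Ribo-seq libraries (0.127% to 0.137%) sit under the WT libraries (0.162% to 0.171%) in the panel of all members.

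The most abundant lincRNAs, ranked per kilobase of transcript, differed between the tissues. In WT kidney the leading genes were a 369-nt lincRNA transcript of Lsmem2 (chr9:107593841-107597075, 3 exons) at 41.8 ± 4.07 RNA-seq CPM per kb (SD, n = 3) and BC024386 (chr7:140906083-140907979, 6 exons) at 40.1 ± 2.32. D630029K05Rik followed at 30.7 ± 1.8. Neat1, the architectural RNA of paraspeckles (chr19:5824708-5845478, 1 exon of 20771 nt), stood at 25.8 ± 6.43 CPM per kb in RNA. It was hardly seen in footprints, with 154, 67 and 30 Ribo-seq counts beside 28725, 32375 and 17236 RNA-seq counts. Its footprints over RNA came to 0.00788, against 0.146 for BC024386, 0.212 for D630029K05Rik and 0.0236 for the Lsmem2 transcript.

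In WT brain, Bc1 exceeded every other member in RNA at 7940 ± 993 CPM per kb, with 104947, 137247 and 126325 RNA-seq counts. Only 34, 23 and 35 footprints fell on it, a ratio of 0.00141. 2900097C17Rik (chr2:156388065-156392979, 1 exon) stood at 119 ± 13.3 and Rian, a nuclear RNA of the imprinted Dlk1-Dio3 region (chr12:109646141-109661716, 11 exons), at 85.6 ± 3.84 CPM per kb in RNA. Both were poor in footprints, at 0.00729 and 0.0211. Gm27000 (68.9 ± 9.08 in RNA) had a ratio of 0.260, and Gm47162 (32.0 ± 5.47 in RNA) one of 0.935. AC157548.1 (42.8 ± 1.06 in RNA), which shares windows with the tubulin gene Tuba1b, reached 0.843.

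**Figure D2:**
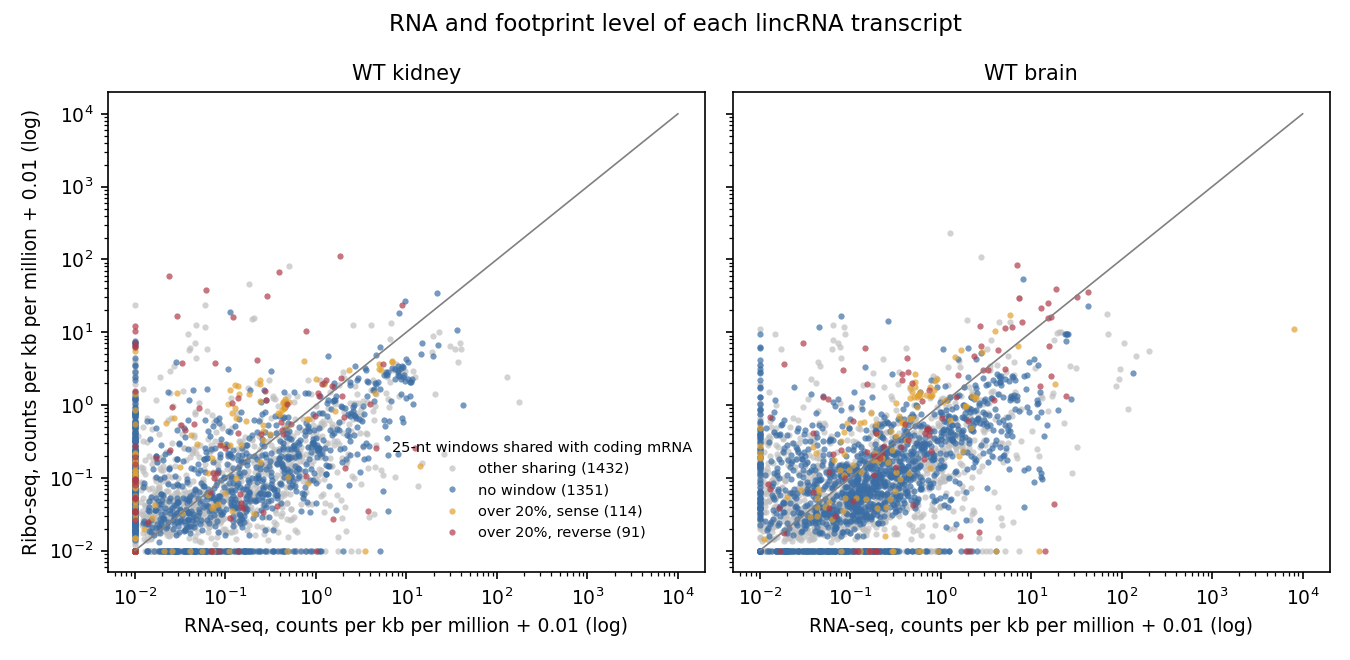
RNA-seq level (x axis) against Ribo-seq level (y axis) of each lincRNA transcript in WT kidney and WT brain, in CPM per kb plus 0.01 on log axes. Colours give how much of the transcript is made of 25-nt windows shared with coding transcripts and in which orientation, and the line marks equal levels. Bc1 is the brain point farthest to the right (7940 in RNA), and many reverse-sharing transcripts lie at the left edge with high footprints in kidney.

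Genes were then taken at a mean of at least 100 RNA-seq counts over the WT and KO libraries of a tissue. Their median footprints over RNA in WT was 0.186 over 114 genes in kidney (quartiles 0.0488 and 0.431) and 0.181 over 233 genes in brain (quartiles 0.0447 and 0.420). The median over protein-coding transcripts of the same depth was 0.848 in kidney and 0.948 in brain. The lincRNAs ranged widely, with kidney ratios of 0 to 4.87 and brain ratios of 0 to 7.66, and 10 kidney and 26 brain genes lay above 1. At the other end, 8.77% of kidney and 15.4% of brain lincRNA genes lay under 0.01, against 0.12% and 0.0918% of coding transcripts. These medians describe the genes and were not tested.

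The lincRNAs richest in footprints for their RNA were a mixed group. In kidney they were AC121821.1 (4.87), Ino80dos (3.04), 6720427I07Rik (2.29), Gm17484 (1.67) and Gm43055 (1.31). All but 6720427I07Rik overlapped a coding exon, Ino80dos opposite the complex I subunit gene Ndufs1. In 6720427I07Rik (chr13:48532905-48546500, 2 exons), which shares no window, 129, 84 and 94 footprints stood beside 108, 136 and 125 RNA-seq counts. In brain the highest ratio was that of C230004F18Rik (chrX:61116386-61194162, 8 exons), which overlaps Cdr1 on the opposite strand. It had 10149, 1441 and 4922 footprints in WT libraries 1 to 3 on 3505, 3958 and 2961 RNA-seq counts, a ratio of 7.66, and its footprints differed between libraries far more than its RNA. Reads of C230004F18Rik and Cdr1 cannot be told apart without the strand.

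Lncppara (chr15:85653616-85707524, 7 exons, no shared window) was rich in footprints in both tissues. In brain it had 205, 84 and 137 footprints on 147, 107 and 149 RNA-seq counts, a ratio of 5.68, and in kidney 111, 56 and 59 footprints on 24, 28 and 12 RNA-seq counts. Other brain genes at the top were Gm10874 (4.03), Gm16302 (4.01) and AC160336.1 (3.9). Several well-expressed genes carried almost none. Gm49749 had 112, 123 and 95 RNA-seq counts in WT kidney and 884, 799 and 533 in WT brain with 0 footprints in all 6 libraries, and Gm15966 had 559, 695 and 377 RNA-seq counts in WT brain with 0 footprints. Gm49749 lies within an exon of the coding gene Pcnx on the same strand and shares 100% of its windows with it, so RNA-seq reads of both cannot be told apart. Gm15966 overlaps Olig1, a transcription factor gene of oligodendrocytes, on the opposite strand and shares 34.0% of its windows with it in reverse. A count of 0 allows up to 3 counts in a library, a limit that covers counting error only. In kidney, Gm26964 also had 0 footprints on 112, 110 and 73 RNA-seq counts.

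A large part of the kidney footprints fell on members with hardly any RNA. The 7992 members with a mean under 10 RNA-seq counts in kidney held 48.6% ± 1.15 (SD, n = 3) of the class footprints in WT and 2.83% of the class RNA. In brain, 7192 such members held 16.8% ± 2.63 of the footprints and 1.23% of the RNA. Protein-coding transcripts under the same limit held 2.55% and 0.571% of coding footprints. Of these members, 164 in kidney and 89 in brain had a mean of 10 or more footprints. Processed pseudogenes also held less RNA in kidney, at 0.0298% of WT kidney and 1.59% of WT brain RNA-seq counts. Their Ribo-seq shares were 4.44% and 3.84%. The part of this RNA-seq difference in the contrast between the tissues was not tested.

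The members printed above were among the genes with the most kidney footprints, and they shared sequence with coding genes rich in footprints. Gm10874 had 89.2 ± 8.52 CPM of footprints and 0.120 CPM of RNA in WT kidney, beside 127 and 63.9 CPM for Got2, the mitochondrial aspartate aminotransferase. Of its 2331 windows, 1218 (52.3%) occurred in the Got2 transcript, and none of the windows it shared with coding transcripts lay in sense. Gm47162 had 49.2 ± 4.82 CPM of footprints with 0.812 CPM of RNA and shared 92.7% of its windows with Scp2, a sterol carrier, at 162 CPM of footprints. Gm28901 had 28.2 ± 2.26 CPM with 0.00650 CPM of RNA and shared 90.7% with the splicing factor gene Hnrnpf (88.0 CPM). Gm16302 had 19.9 ± 1.16 CPM with 0.0745 CPM of RNA and shared 16.3% with the cytokine gene Mif (90.3 CPM).

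All the windows of these 4 shown above ran in reverse to the coding transcript. Between KO and WT, the kidney footprint changes of a member and its coding counterpart on the log2 scale were 0.26 and 0.24 for Gm10874 and Got2, -0.21 and -0.15 for Gm47162 and Scp2, 0.12 and 0.09 for Gm28901 and Hnrnpf, and -0.26 and -0.18 for Gm16302 and Mif. None of these passed the test. As a set, the 154 members with over 20% of windows shared, mostly in reverse, had footprints over RNA of 6.87 in WT and 7.28 in KO kidney, and 1.62 and 1.40 in brain. In WT they held 0.00661% of kidney and 0.0448% of brain RNA-seq counts, and 0.0454% and 0.0723% of Ribo-seq counts. The part of the RNA-seq difference in this tissue contrast was not tested. The 300 members that shared over 20% mostly in sense stood at 1.42 and 0.880 in kidney, and at 0.0781 and 0.0936 in brain, where most of their RNA was Bc1. Without Bc1 they stood at 1.5 and 1.03 in kidney, and at 1.27 and 1.18 in brain. Window-sharing members held 73.9% to 84.8% of the class counts in every library, so the class is given below with and without them.

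Set against RNA, the footprints of the class were lower in KO than in WT kidney, a difference that lost its place under 0.05 on adjustment. KO kidney Ribo-seq libraries had 0.137%, 0.135% and 0.127% of counts on lincRNAs, all below the 3 WT libraries, while KO kidney RNA-seq libraries had 0.285%, 0.340% and 0.309% and overlapped WT. The difference in the Ribo-seq share was -0.32 on the log2 scale (exact permutation test of libraries, two-sided p = 0.1, the smallest that 3 against 3 allows; adjusted p = 0.25 over 5 shares). That in the RNA-seq share was 0.06 (exact permutation p = 0.7). In bulk tissue, fewer cells of a type and less RNA per cell cannot be told apart.

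Footprints over RNA in kidney were 0.561, 0.543 and 0.573 in WT and 0.440, 0.435 and 0.410 in KO, when the share of each Ribo-seq library was set over the geometric mean RNA-seq share of its tissue and genotype. The means were 0.559 ± 0.0778 and 0.428 ± 0.0416 (SD with the spread of both assays, n = 3), a difference of -0.38 on the log2 scale. Over all 9 pairs of a Ribo-seq and an RNA-seq library, the lowest WT ratio was 0.5 and the highest KO ratio 0.479, so the genotypes did not overlap in any pairing. An exact permutation test over 400 arrangements of the libraries gave p = 0.035 (two-sided, smallest possible 0.005), or 0.07 adjusted over a family of 6. Leaving out 1 library at a time gave differences from -0.45 to -0.27, and p reached 0.05 or more in 9 of the 12 cases. Antisense transcripts moved from 0.842 to 0.770 and protein-coding transcripts from 0.900 to 0.923 in the same libraries.

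In the 4616 members that share no window, KO and WT kidney did not overlap in RNA, footprints or their ratio. Kidney footprints over RNA were 0.668 ± 0.0558 (SD with the spread of both assays, n = 3) in WT and 0.345 ± 0.0414 in KO, -0.95 on the log2 scale (unadjusted exact permutation p = 0.005, the smallest possible). The RNA-seq share of these members was higher in KO kidney (0.0687% to 0.0814%) than in WT (0.0563% to 0.0629%), and the Ribo-seq share was lower (0.0243% to 0.0281% against 0.0388% to 0.0431%). Neither pair of ranges overlapped, and 3 against 3 libraries gave p = 0.1 for each by the exact permutation test. Members that share a window went from 0.532 to 0.456, -0.22 on the log2 scale (exact permutation p = 0.24). Whether the 2 sets differ in their response was not tested.

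In brain the footprints over RNA overlapped between the genotypes. They were 0.464, 0.345 and 0.316 in WT and 0.410, 0.311 and 0.331 in KO, a difference of -0.09 on the log2 scale (exact permutation p = 0.77). The share of brain RNA-seq counts was lower in KO, at 0.572%, 0.617% and 0.530% against 0.630% to 0.665% in WT, without overlap (-0.18 on the log2 scale, exact permutation p = 0.1, adjusted p = 0.25). Brain Ribo-seq shares were 0.234%, 0.178% and 0.189% in KO and overlapped WT (exact permutation p = 0.3). The change in kidney less the change in brain was -0.30 on the log2 scale (exact permutation p = 0.353, smallest possible 1.25e-05), so a difference between the tissues was not shown. For members that share no window it was -0.67 (exact permutation p = 0.113).

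**Figure D3:**
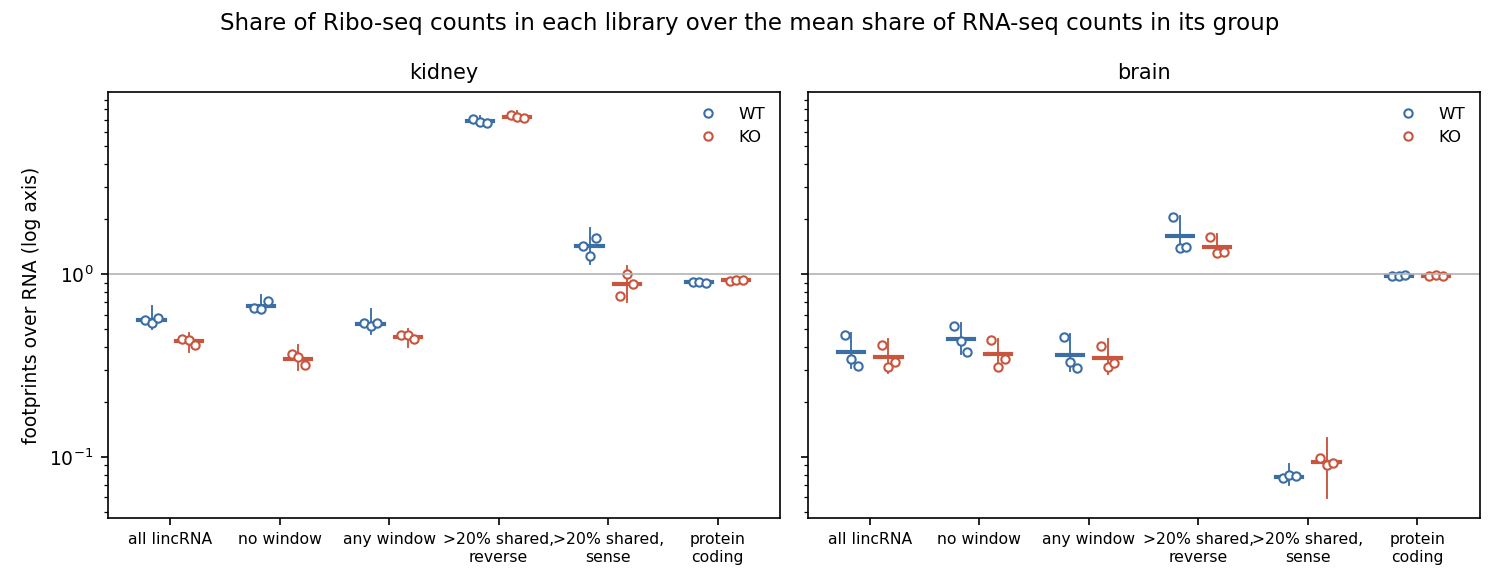
Footprints over RNA (share of Ribo-seq counts over share of RNA-seq counts, log axis) in kidney and brain for all lincRNA transcripts, for those with no shared window, with any shared window, with over 20% of windows shared in reverse or in sense, and for protein-coding transcripts. Circles are Ribo-seq libraries over the geometric mean RNA-seq share of their tissue and genotype, thick bars are means of 3, and thin lines span all 9 pairs of libraries. In kidney, the no-window members had means of 0.668 in WT and 0.345 in KO, and protein-coding transcripts 0.900 and 0.923.

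Medians over single lincRNAs gave a lower ratio in KO kidney, which again did not pass after adjustment. Here the median footprint CPM over members was set over their median RNA CPM, with 0.5 counts added. This differs from the median of single ratios given earlier. Over the 451 members with a mean of at least 10 RNA-seq counts in kidney, it was 0.259 in WT and 0.165 in KO, -0.65 on the log2 scale (exact permutation p = 0.02, adjusted p = 0.06 over 3 medians). Over 863 members in brain it was 0.313 and 0.290 (-0.11, exact permutation p = 0.61).

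Other transcript types were also lower in KO kidney Ribo-seq. Small nucleolar RNAs took 0.00712% to 0.0148% of counts in WT and 0.00312% to 0.00476% in KO. Small nuclear RNAs took 0.0575% to 0.0837% and 0.0253% to 0.0555%. Transcripts that the annotation types as still to be experimentally verified took 0.0795% to 0.0816% and 0.0645% to 0.0693%. These groups do not overlap, and their part in the lincRNA result was not tested. The retained-intron class was at 13.5% in both genotypes.

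Transcript by transcript, lincRNA calls between KO and WT came from kidney Ribo-seq and were mostly falls. Of the members, 387 transcripts of 235 genes passed the filter on low counts and 57 transcripts of 45 genes (14.7%) had an adjusted p under 0.05 (edgeR's quasi-likelihood test, with p adjusted by the method of Benjamini and Hochberg over the 75266 transcripts in the fit). Over all transcripts, 7.76% were called. Among members, 53 transcripts of 42 genes fell in KO (13.7%, against 3.01% lower over all transcripts) and 4 transcripts of 3 genes rose (1.03%, against 4.75% higher). The median log2 fold change was -0.39 over the members tested and -0.01 over all transcripts. Some members passed the filter on low counts only through their WT libraries. Examples are Gm46224 (0.272, 0.353 and 0.152 CPM in KO) and Gm47707 (0.181, 0.188 and 0.152 CPM in KO). The number of falls and the median are therefore not independent of a high WT value. Scaling by library size alone turned the split of calls over all transcripts from 61.2% to 37.6% higher in KO, and DESeq2 to 72.6% higher, while members gave 3 higher and 55 lower and 3 higher and 23 lower in these fits. The count rested on the deeper KO libraries, falling to 2 calls without KO library 3, to 4 without KO library 2, to 23 without WT library 1 and to 30 without WT library 2.

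Of the 127 tested members that share no window, 23 (18.1%) were called, all of them lower in KO, with a median log2 fold change of -0.70. The 53 lower transcripts had a median length of 1128 nt and a longest AUG-started frame of 210 nt at the median, and the 330 tested transcripts without a call had 1176 and 207 nt. Of the lower ones, 56.6% shared a window and 52.8% had a mean under 10 kidney RNA-seq counts, against 68.5% and 36.7% of those without a call.

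The strongest falls were in thinly covered lincRNAs. Those named in this and the next paragraph passed the filter on low counts only through their WT libraries. Their entry into the test is therefore not independent of a high WT value. Gm36372 (chr12:16204911-16221279, 4 exons) had 1.2, 1.68 and 0.663 CPM of footprints in WT kidney and 0.362, 0.165 and 0.0254 CPM in KO. All KO libraries lay below WT, with a log2 fold change of -3.08 ± 0.53 (SE; adjusted p = 0.00872, edgeR), resting on 31, 25 and 9 footprints against 4, 7 and 1. Its RNA-seq counts overlapped, at 22, 17 and 10 in WT and 19, 12 and 16 in KO.

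Gm27032 (chr2:180894105-180895220, 1 exon) had 48, 20 and 12 footprints in WT kidney and 4, 10 and 7 in KO, a log2 fold change of -2.56 ± 0.36 (SE; adjusted p = 0.00402, edgeR) that held when any 1 of the 6 libraries was left out. It had 0 RNA-seq counts in all 6 kidney libraries and 605, 697 and 653 in WT brain. 3930402G23Rik (chr8:10924427-10928696) went from 1.08, 1.01 and 0.810 to 0.272, 0.306 and 0.127 CPM (-2.04 ± 0.36, adjusted p = 0.00921, edgeR). 4930583I09Rik, whose sequence lies wholly within an annotated coding transcript of the same locus, went from 0.927, 0.673 and 1.03 to 0.362, 0.188 and 0.203 CPM (-1.94 ± 0.36, adjusted p = 0.0107, edgeR). 5830416I19Rik (chr5:64044978-64050228) went from 0.734, 0.807 and 0.958 to 0.181, 0.165 and 0.254 CPM (-1.91 ± 0.35, adjusted p = 0.0106, edgeR). WT and KO did not overlap in any of these, but the calls of Gm36372, 4930583I09Rik and 5830416I19Rik were lost without KO library 2 or 3 and that of 3930402G23Rik without KO library 3.

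Well-known noncoding RNAs fell as well. Rmrp, the RNA of the endonuclease RNase MRP that processes rRNA, went from 31.0, 23.5 and 14.9 CPM of footprints in WT kidney to 7.07, 7.18 and 4.57 CPM in KO (-1.86 ± 0.23, adjusted p = 0.00169, edgeR). In Rmrp, 96.1% of windows also occur in a structural RNA entry. Neat1 went from 5.95, 4.51 and 2.21 to 1.54, 1.79 and 1.22 CPM (-1.47 ± 0.28, adjusted p = 0.0127, edgeR), while its RNA counts overlapped between genotypes, at 28725, 32375 and 17236 in WT and 22172, 23697 and 17420 in KO. The other Neat1 transcripts tested had -1.76 and -1.57. Mir17hg, host of an oncogenic microRNA cluster, went from 2.20, 2.49 and 2.80 to 0.906, 1.53 and 0.711 CPM (-1.11 ± 0.27, adjusted p = 0.0293, edgeR).

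Footprint-rich members were among the falls. Lncppara went from 4.29, 3.77 and 4.35 to 2.81, 1.70 and 1.62 CPM (-1.09 ± 0.21, adjusted p = 0.0132, edgeR). 6720427I07Rik went from 4.98, 5.65 and 6.92 to 3.81, 3.60 and 2.03 CPM (-0.87 ± 0.23, adjusted p = 0.0365, edgeR). AI314278, a kidney lincRNA, went from 18.7, 21.3 and 23.4 to 13.1, 14.6 and 14.3 CPM (-0.51 ± 0.12, adjusted p = 0.0218, edgeR). In each, the lowest WT library stood above the highest KO library. 1300002E11Rik contributed 6 of the 53 lower transcripts, with log2 fold changes from -1.10 to -1.04, and isoforms share reads and are not independent.

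1810058I24Rik, whose frame is printed above, had 6.49, 6.06 and 9.28 CPM of footprints in WT kidney and 4.62, 4.57 and 4.42 CPM in KO. The log2 fold change was -0.61 ± 0.17 (SE; adjusted p = 0.0436, edgeR). Its RNA was higher in every KO library, at 2159, 1990 and 1899 counts against 1499, 1574 and 1267 in WT. That RNA change did not pass the test.

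The 3 genes that rose all share sequence in reverse with a coding gene. Such sharing was not particular to the rises. Of the 38 tested members with over 20% of windows shared, mostly in reverse, 4 were called lower and 2 higher. Ino80dos (chr1:63114740-63157245, 4 exons), opposite Ndufs1, went from 15.5, 15.1 and 16.8 to 21.2, 22.2 and 23.1 CPM of footprints (0.56 ± 0.10, adjusted p = 0.0105, edgeR), with 236, 210 and 407 RNA-seq counts in WT and 180, 55 and 42 in KO. Gm47854 (chr9:51621425-51655127), with 19.1% of windows found in coding transcripts, mostly those of the glycolytic gene Gapdh in reverse, went from 0.657, 0.673 and 0.516 to 1.18, 1.44 and 1.27 CPM (1.14 ± 0.26, adjusted p = 0.0219, edgeR). Both calls were lost without KO library 2 or 3, and that of Gm47854 also without WT library 1. Gm29233, opposite Thbs1, had 2.59, 3.70 and 2.50 CPM in WT and 3.26, 6.17 and 4.62 CPM in KO, which overlap (0.82 ± 0.21, adjusted p = 0.0347, edgeR).

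**Figure D4:**
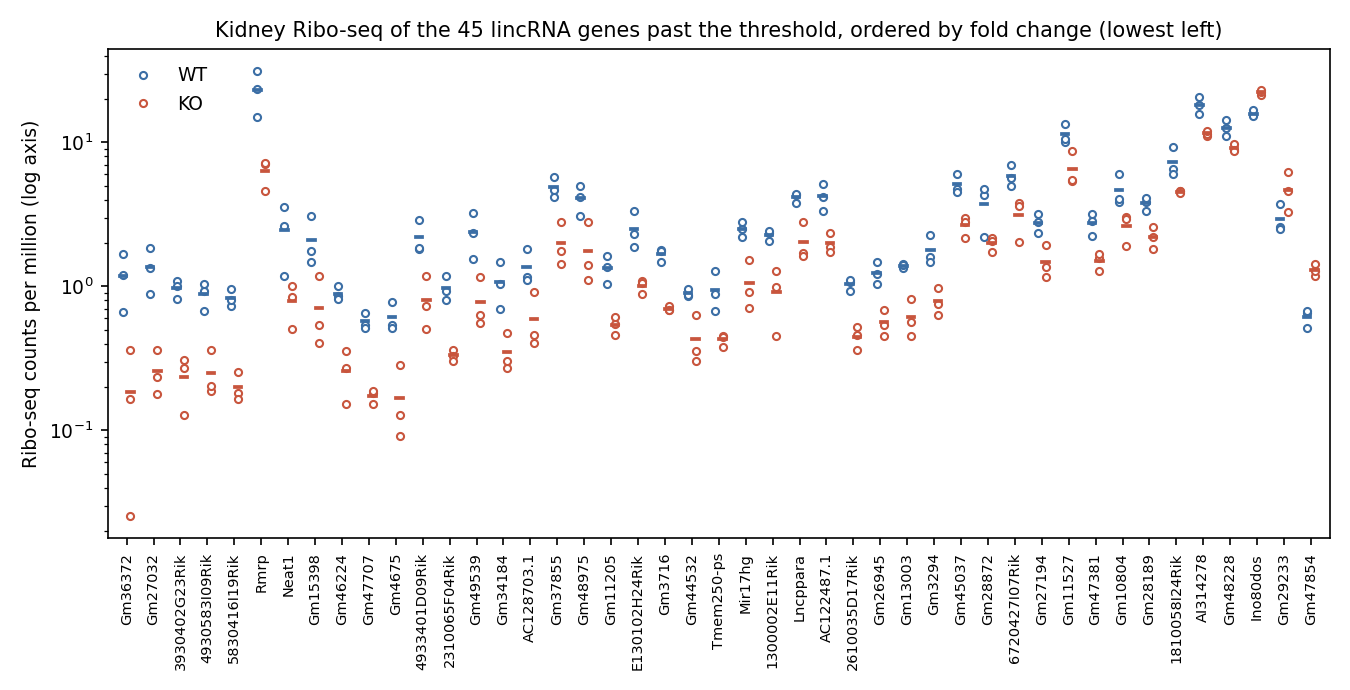
Kidney Ribo-seq CPM (log axis) of the 45 lincRNA genes past the threshold, each shown by its transcript that changed most and ordered by log2 fold change from lowest on the left. Circles are the 3 WT and 3 KO libraries and bars are means. The first 42 genes fell in KO, from Gm36372 at -3.08, and the last 3, Ino80dos, Gm29233 and Gm47854, rose.

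In kidney RNA-seq, no member passed the threshold. Of 816 transcripts of 458 genes tested, 0 were called by edgeR's quasi-likelihood test, 159 had an unadjusted p under 0.05 (141 higher in KO), and DESeq2 called 23, of which 22 were higher. Over all 70545 transcripts in the fit, edgeR called 0.00992% and DESeq2 called 465, of which 62.8% were higher. The median log2 fold change of the members was 0.42, against -0.03 over all transcripts, and 28.7% of members lay below 0 against 51.9%. Without KO library 1, edgeR called 111 members. Gm44386 (chr6:86513891-86516273, 2 exons) had the smallest p, with 467, 484 and 459 counts in WT and 864, 811 and 593 in KO (0.82 ± 0.16, adjusted p = 0.292, edgeR). Mir99ahg, a microRNA host gene, had 19, 29 and 18 counts in WT and 57, 116 and 109 in KO (2.30 ± 0.48). The KO libraries lay above WT in both, but neither passed.

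The brain gave no call among members in either assay. In brain RNA-seq, 0 of 1600 transcripts passed by edgeR and by DESeq2, 41 had an unadjusted p under 0.05 (12 higher in KO), and 0.0134% of all transcripts were called. The median of the members was 0.01 (-0.06 when scaled by library size alone) against -0.02 over all transcripts. The member with the smallest p was Gm14827, with 460, 390 and 427 counts in WT and 310, 230 and 244 in KO (-0.70 ± 0.17, adjusted p = 0.898, edgeR).

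In brain Ribo-seq, 0 of 494 members passed by edgeR and by DESeq2, 80 had an unadjusted p under 0.05 (73 lower in KO), and 0.0345% of all transcripts were called. The median member lay at -0.27 against -0.01 over all transcripts, and 76.3% of members lay below 0 against 52.3%. The pair with the smallest p were Gm48453, with 41, 20 and 25 footprints in WT and 13, 23 and 9 in KO, and 1700020I14Rik, with 81, 47 and 105 against 52, 87 and 55 (-0.77 ± 0.17, adjusted p = 0.186, edgeR). Scaled to depth the groups did not overlap, at 1.14 to 2.11 CPM in WT and 0.413 to 0.730 CPM in KO for Gm48453, and 3.9 to 4.95 CPM in WT and 2.43 to 2.92 CPM in KO for 1700020I14Rik.

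**Figure D5:**
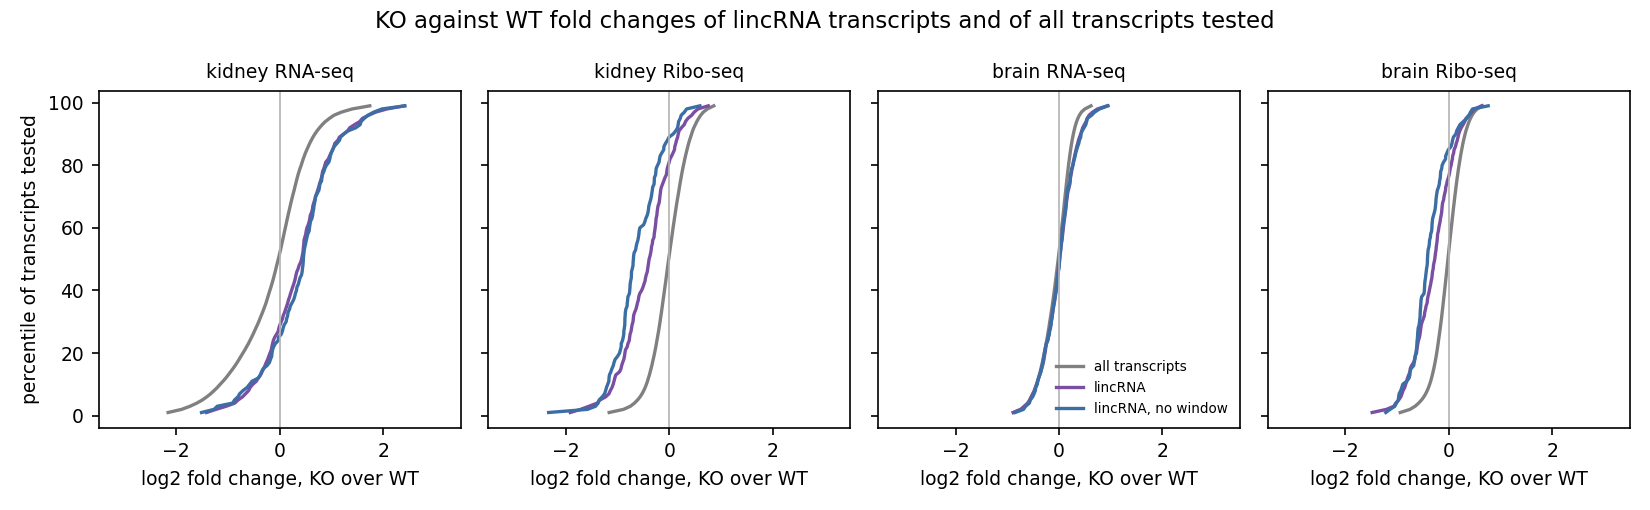
Percentile (y axis) of the log2 fold change KO over WT (x axis) for all transcripts tested, lincRNA transcripts tested and lincRNA transcripts tested that share no window, in RNA-seq and Ribo-seq of kidney and brain. In kidney the lincRNA curve lies to the right of all transcripts in RNA-seq (median 0.42 against -0.03) and to the left in Ribo-seq (median -0.39 against -0.01).

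Translation efficiency (TE), the change in Ribo-seq less the change in RNA-seq in 1 model, gave no call between KO and WT for any transcript by edgeR. The study, with its own TE tool, reported many transcripts with changed TE in kidney and in brain. In kidney, 0 of 1085 members tested passed by edgeR (0.0% of all transcripts), 191 had an unadjusted p under 0.05 (173 lower in KO), and DESeq2 called 42, of which 38 were lower. Over all 89685 transcripts in the fit, DESeq2 called 4381, of which 61.8% were higher. The median member lay at -0.72 against 0.08 over all transcripts. Without KO RNA-seq library 1, edgeR called 102 members. The smallest adjusted p was 0.0721 for Gm29233, whose RNA went from 11, 9 and 11 counts to 1, 0 and 0. For 1810058I24Rik (chr6:35252716-35261637, 690 nt), 1258, 1302 and 1059 RNA-seq counts in WT and 1866, 1687 and 1597 in KO stood beside 171, 93 and 128 and then 53, 204 and 176 footprints (-1.25 ± 0.24).

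In brain TE, 0 of 1701 members passed by edgeR (0.0% of all transcripts) and 0 by DESeq2, with 69 at an unadjusted p under 0.05 (56 lower in KO). The median member lay at -0.27 against 0.01. Gm3764 had 9, 6 and 5 footprints in WT and 2, 1 and 1 in KO (-2.37 ± 0.68), and Gm28875 had 4, 3 and 3 footprints in WT and 0 in each KO library. Both rest on few reads and neither passed.

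Disome-seq carried a larger share of lincRNA counts than Ribo-seq. WT libraries had 0.294%, 0.294% and 0.330% and KO libraries 0.269%, 0.297% and 0.306%, which overlap (-0.07 on the log2 scale, exact permutation p = 0.6). The disome share over the Ribo-seq share was 1.84 ± 0.133 in WT and 2.19 ± 0.169 in KO. Here the SD takes in the spread of both assays (n = 3). Antisense transcripts had similar ratios, at 1.803 ± 0.274 in WT and 2.191 ± 0.226 in KO, so neither value was particular to lincRNAs. Small nuclear RNAs took 0.0672% of Ribo-seq and 1.74% of disome-seq counts in WT kidney. The ratios were 0.905 and 0.894 for protein-coding transcripts, and 0.713 and 0.733 for processed pseudogenes. In a test of the disome count relative to the Ribo-seq count, 0 of 359 members passed by edgeR (0.0% of all transcripts) and 0 by DESeq2, with 65 at an unadjusted p under 0.05 (62 higher in KO) and a median of 0.33 against -0.02. Neat1 had the smallest p. Its disome counts were 146, 151 and 60 in WT and 109, 83 and 55 in KO, which is 48.0 to 50.0 CPM in WT and 42.6 to 46.9 CPM in KO without overlap. Set against its Ribo-seq counts, the log2 change was 1.45 ± 0.31 (SE; adjusted p = 0.487, edgeR).

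Lists of known lincRNAs had few members deep enough to test in kidney Ribo-seq. Of 15 nuclear or imprinted RNAs, 10 were members, with 94 transcripts. In kidney Ribo-seq, 6 of these, from 4 genes, were tested and 3 fell, all of Neat1, with a median of -1.06. Of 13 cytoplasmic or regulatory RNAs, 6 were members, and Mir17hg, the only one tested in kidney Ribo-seq, fell. Of 9 loci with described small proteins, 2 were members, and 3 of 5 transcripts tested fell, all of 1810058I24Rik. The immune lincRNA AW112010 had footprints over RNA of 0.849 in WT and 0.683 in KO kidney. Of 15 neuronal RNAs, 9 were members. Only 11 transcripts, all of 1 gene, were tested in kidney Ribo-seq, and 0 passed by edgeR (median 0.08). No transcript of any list passed in kidney or brain RNA-seq, brain Ribo-seq, TE or disome-seq by edgeR.

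Brain libraries held more lincRNA than kidney libraries. These comparisons use the WT libraries that the KO comparisons use too. Over both genotypes, lincRNAs held a smaller share of RNA-seq counts in kidney than in brain, by -1.0 on the log2 scale, and a smaller share of Ribo-seq counts, by -0.55 (exact permutation within genotype, p = 0.005 for each, the smallest possible; adjusted p = 0.015). Within WT alone the share was 2.17-fold higher in brain RNA and 1.44-fold higher in brain footprints, and within KO 1.84-fold and 1.5-fold. Without members that overlap coding exons the Ribo-seq difference was -0.14 (exact permutation p = 0.075), and without the 10 most counted genes -0.10 (exact permutation p = 0.22).

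Footprints over RNA were 0.45 higher in kidney on the log2 scale (exact permutation p = 0.243). Tissue labels were permuted within each assay, so this p also takes in the tissue differences in both shares. It does not measure the spread between libraries alone. Over all 9 pairs of libraries, WT ratios did not overlap, at 0.5 to 0.671 in kidney and 0.307 to 0.476 in brain. KO ratios overlapped, at 0.374 to 0.479 and 0.288 to 0.442. The p of 0.243 depended on the setting. The difference was 0.98 with 1 transcript per gene (exact permutation p = 0.0271), 0.88 without members that overlap coding exons (exact permutation p = 0.00653) and 0.44 without the 10 most counted genes (exact permutation p = 0.0069). At 0.45, the exact permutation p was 0.0313 with a replicate block, the smallest that the block allows, and 0.01 with ratios of same-numbered libraries. Processed pseudogenes held 0.0267% to 0.0331% of counts in WT kidney RNA-seq and 1.46% to 1.68% in WT brain RNA-seq, while their Ribo-seq shares were 4.44% and 3.84%. Gm10874, printed above, had 0.120 CPM in WT kidney RNA and 17.2 CPM in WT brain RNA with 89.2 and 69.4 CPM of footprints. The part of this RNA-seq difference in the tissue comparisons of RNA-seq shares, of single transcripts and of footprints over RNA was not tested.

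In RNA-seq, 1145 of 1522 members tested (75.2%) differed between WT kidney and WT brain by edgeR at an adjusted p under 0.05, against 64.1% of all transcripts. Higher in kidney were 363 (23.9%, against 28.3% of all) and higher in brain 782 (51.4%, against 35.8%). The median log2 difference, kidney less brain, was -1.40 for members, also with transcripts at 0 in 1 tissue set to the floor, and -0.20 for all transcripts. The members with the largest difference toward kidney included AI314278, with 2528, 2781 and 1469 counts in kidney and 0 in each brain library, at least 1421-fold higher against a floor of 3 counts per library. BC024386 (1603, 1685 and 1637 counts against 0) was at least 1046-fold higher, Gm10804 at least 510-fold, Gm32461 at least 360-fold and 0610006L08Rik at least 214-fold.

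Brain RNA held AC157548.1 (14334, 14126 and 13849 counts against 0 in kidney) at least 2457-fold higher. Mir124a-1hg, host of the neuronal microRNA miR-124 (chr14:64588051-64593961, 4 exons), had 12027, 13134 and 10528 counts in brain and 0 in kidney, at least 2069-fold higher. Gm27000, Gm7292 and Dbpht2 were at least 931-, 700- and 398-fold higher in brain. AC157548.1 nevertheless had 781, 368 and 292 footprints in the kidney libraries without RNA. It shares 37.7% of its windows with coding transcripts, mostly those of Tuba1b. The part of shared sequence in these RNA-seq differences between tissues was not tested. Of the neuronal list, 42 of 44 transcripts tested (8 genes) were higher in brain RNA and none in kidney. Of the nuclear or imprinted list, 51 of 78 (9 genes) were higher in brain and 3 in kidney. The median log2 differences of these 2 lists, with transcripts at 0 in 1 tissue set to the floor, were -3.58 and -3.23. The small-protein list ran the other way, with 5 of 5 transcripts (2 genes) higher in kidney (median 2.18). Of 10 cytoplasmic or regulatory transcripts tested (5 genes), 1 was higher in kidney. Isoforms of 1 gene are not independent.

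In Ribo-seq, 338 of 502 members tested (67.3%) differed between the tissues, against 70.9% of all transcripts. Higher in kidney were 147 (29.3%, against 35.0% of all) and higher in brain 191 (38.0%, against 35.8%), shares near those of all transcripts. AI314278 had 485, 316 and 318 footprints in kidney and 0 in brain, at least 106-fold higher, and D630029K05Rik and Gm32461 were at least 66.5- and 28.2-fold higher. In brain, C230004F18Rik (3354-nt transcript) had 10115, 1421 and 4816 footprints against 3, 1 and 7 in kidney (-10.32 ± 0.59, SE). Rian (146, 26 and 38 against 0) was at least 21.4-fold higher in brain and Mir124a-1hg at least 10.8-fold. All 24 neuronal transcripts tested, of 5 genes, were higher in brain footprints, with a median of -2.28 with those at 0 in kidney set to the floor.

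In TE, 261 of 1459 members tested (17.9%) differed between WT kidney and WT brain, against 19.8% of all transcripts. Higher in kidney were 198 (13.6%, against 11.7% of all) and lower 63 (4.32%, against 8.09%). Most of the largest differences rest on 1 tissue without RNA. AC112949.1 had 7, 13 and 3 footprints on 0 RNA-seq counts in kidney and 0 footprints on 33, 29 and 15 RNA-seq counts in brain. C730027H18Rik (chr10:71170834-71182052, 3 exons) had 61, 42 and 28 footprints on 118, 118 and 102 RNA-seq counts in kidney, and 82, 6 and 27 footprints on 0, 1 and 0 in brain (-8.37 ± 0.92, adjusted p = 5.3e-06, edgeR). AC117816.1 had 5, 3 and 4 footprints on 741, 566 and 501 RNA-seq counts in kidney and 1, 1 and 2 on 1, 0 and 0 in brain. The calls of AC156546.1, Gm15328 and Gm10522 each hung on the single footprint of 1 library and were lost without WT kidney Ribo-seq library 3, WT kidney Ribo-seq library 2 and WT brain Ribo-seq library 3.

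Brain lincRNAs from the lists spanned a wide range of footprints over RNA. Miat, a nuclear RNA of neurons and heart (chr5:112213228-112229395, 7 exons), had 8774, 8695 and 12075 RNA-seq counts and 58, 18 and 40 footprints in WT brain, a ratio of 0.0202. Rian stood at 0.0211, Mir9-3hg at 0.207, Mirg at 0.337 and Pantr1, a neighbour of the transcription factor gene Pou3f3, at 0.494. C130071C03Rik (chr13:83721381-83741308, 4 exons) had 1917, 1863 and 1667 RNA-seq counts and 298, 226 and 258 footprints, a ratio of 0.844.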

How the data were processed

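RNA-seq, Ribo-seq and disome-seq libraries of kidney and brain were used, 30 in all. The authors trimmed reads with cutadapt, removed rRNA reads, aligned them with STAR to GRCm38 (mm10) with multimapping reads allowed, and counted them with featureCounts (Subread). They deposited counts per transcript without normalization, and no versions are given in the sources used here. A second table lists human transcripts under 28 columns named as mouse samples, and these columns were not used.

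Transcript types came from GENCODE M21, matched by identifier for 141374 of 142604 transcripts. The members and the gene lists were chosen with earlier results of these data known. Shared sequence was found as exact windows of 25 nt on either strand. CPM and CPM per kb were computed over all transcript counts of a library, and footprints over RNA is the ratio of 2 such shares. KO and WT were compared by edgeR's quasi-likelihood test (filterByExpr, TMM scaling, Benjamini-Hochberg adjustment, threshold 0.05) on all transcripts, fitted within each tissue and assay. TE and disome-seq against Ribo-seq were interaction terms of such models, in place of the study's own TE tool. The tissue comparison used WT libraries. Class shares and medians were compared by exact permutation of libraries. The scripts were tested on simulated counts.

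Genes named are the 6 highest in RNA per kb in each tissue, the 5 highest and 5 lowest in footprints over RNA at a mean of 100 or more RNA-seq counts, up to 5 calls in each direction with the largest change and no overlap of groups (the 2 smallest p where nothing passed), and the listed genes. Others were named after their values were seen. Same-numbered WT and KO libraries did not deviate together throughout, and the labels do not say which libraries share an animal, so no pairing was used. Alternatives were DESeq2, library size alone, other filters, 1 transcript per gene, members without shared windows or coding overlap, another pseudocount, a replicate block and leaving out each library. Fits were run in R 4.3.3 (DESeq2 1.42.0, limma 3.58.1, edgeR 4.0.16) and all else in Python 3.11.15 (matplotlib 3.10.9, scipy 1.17.1, pandas 2.3.3, numpy 2.4.6).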

Additional observations from a re-analysis of the deposited data

Results flagged for a closer look

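In members that share no window, the share of RNA-seq counts moved in opposite directions in the tissues. Every KO kidney library lay above every WT kidney library (log2 difference 0.34), and every KO brain library lay below every WT brain library (-0.12). The kidney change exceeded the brain change by 0.469 on the log2 scale. The difference between tissues was not tested.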

How the results depend on the processing

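The kidney fall in footprints over RNA (-0.38) kept its direction under every alternative run, but its p rose to 0.25 with a replicate block (-0.38), 0.24 in window-sharing members (-0.22) and 0.1 with same-numbered ratios (-0.38). Its median over members had an exact permutation p of 0.195 with a pseudocount of 5 (-0.65) and 0.25 with the block (-0.65). The tissue difference in footprints over RNA was 0.98 with 1 transcript per gene (exact permutation p = 0.0271), 0.88 without coding overlap (p = 0.00653), 0.44 without the 10 most counted genes (p = 0.0069), 0.45 with the block (p = 0.0313, the smallest possible) and 0.45 with same-numbered ratios (p = 0.01). The tissue difference in the Ribo-seq share was -0.14 without coding overlap and -0.10 without the 10 most counted genes. Signs turned for the disome share in members without shared windows (0.0897), the kidney RNA-seq share in window-sharing members (-0.0213) and the brain median over all transcripts (0.0158).

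Counts of called members moved by over 1.5 times in some settings. With DESeq2 they were 23 in kidney RNA-seq, 26 in kidney Ribo-seq and 42 in kidney TE, beside 465, 3497 and 4381 over all transcripts. With all transcripts of at least 1 count they were 140 in kidney Ribo-seq, 18 in brain Ribo-seq, 5 in disome-seq, 1838 in RNA-seq and 865 in Ribo-seq between tissues. With at least 10 counts in every library the tissue calls were 242, 61 and 9 for RNA-seq, Ribo-seq and TE. With 1 transcript per gene they were 31 in kidney Ribo-seq, 1 in kidney TE, and 630 and 167 between tissues in RNA-seq and Ribo-seq. Members without shared windows gave 23 in kidney Ribo-seq, and 485, 97 and 82 between tissues. The replicate block gave 48 in kidney Ribo-seq, 1 in brain Ribo-seq, 11 in disome-seq, and 1136, 336 and 206 between tissues. Deviations of same-numbered WT and KO libraries correlated from -0.105 to 0.00755 in kidney Ribo-seq. Between RNA-seq and Ribo-seq, same-numbered WT libraries correlated from 0.0224 to 0.051 in kidney and 0.0625 to 0.15 in brain. Between WT kidney Ribo-seq and disome-seq they correlated from 0.0583 to 0.101. These WT values lay above those of other-numbered pairs, while KO values across assays ran from -0.083 to 0.0386. The labels do not say whether such libraries share an animal. Scaling by library size alone shifted the median of all transcripts by -0.16 in kidney RNA-seq, -0.25 in RNA-seq and 0.15 in TE between tissues. No member belonged to the loci with rRNA repeats, so leaving these out could not be run.

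Leaving out 1 library at a time gave 0 to 111 calls in kidney RNA-seq, 2 to 69 in its Ribo-seq, 0 to 102 in kidney TE, 0 to 1 in brain Ribo-seq, 0 to 3 in disome-seq, 1020 to 1402, 315 to 432 and 210 to 273 between tissues in RNA-seq, Ribo-seq and TE, and 0 in brain RNA-seq and brain TE. Differences ranged from -0.45 to -0.27 for kidney and -0.20 to 0.0773 for brain footprints over RNA (0.0773 without WT Ribo-seq library 1), -0.46 to -0.18 for their difference, and 0.39 to 0.53 between tissues. Shares ranged from -0.0536 to 0.12 in kidney RNA-seq (-0.0536 without WT library 3, -0.00656 without KO library 2), -0.35 to -0.29 in its Ribo-seq, -0.11 to -0.02 in disome-seq, -0.23 to -0.12 in brain RNA-seq, -0.38 to -0.10 in brain Ribo-seq, and -1.03 to -0.94 and -0.61 to -0.47 between tissues. Medians ranged from -0.75 to -0.54 in kidney, -0.25 to 0.0333 in brain (0.0333 without WT and 0.0165 without KO Ribo-seq library 2) and 0.41 to 0.63 between tissues. The cause of these changes was not tested.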
